A study of Mus musculus with 10 samples.

Results

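Among the 43031 deposited 3′UTR features, 729 were written as 2 or more exon lines, which marks a 3′UTR interrupted by an intron. Of these, 294 had a TPM (StringTie's level per length of feature, scaled to a fixed total in each library) above 0 in all 9 libraries and are the spliced 3′UTR features described here (40.3% of the 729). Of the other 435 spliced features, 311 were listed at 0 in every library and 124 in 1 to 8 of them. The filter was passed by 24178 of 42302 features with a single line (57.2%). The 294 features belonged to 288 named genes, with 2 features left without a symbol, and 287 of them had 2 lines.

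The libraries came from RNA of mouse ESC (embryonic stem cells), labelled C57BL/6 and grown with LIF on feeder fibroblasts or gelatin. WT cells were compared with DIDO3ΔE16 cells, in which the floxed DIDO3-specific exon16 of the Dido1 gene had been deleted by a Sox2-driven Cre. The other mutant, DIDO3ΔCT+HADIDO3, carries a C-terminal deletion of DIDO3 that affects the same exon and was reconstituted with HA-tagged DIDO3, so this reconstituted line is a different line and not a restored DIDO3ΔE16 line. Each group had 3 libraries, and the number of ESC clones behind them was not given in the sources used here, so p-values measure the spread between these libraries, which may be technical.

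Most 3′UTRs lie in a single exon. When an intron follows the stop codon, the spliceosome leaves an exon junction complex just upstream of the junction, and a complex that remains far enough downstream of a terminating ribosome recruits the UPF1 machinery of nonsense-mediated decay (NMD). A distance of about 50 bases is the usual rule of thumb. Several RNA-binding protein genes limit their own expression in this way.

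By that distance, few of the members would be NMD substrates. The 3′UTR bases between stop codon and last junction numbered 50 or more in 28 members and fewer than 50 in 266. A GENCODE transcript with the same stop codon and the same introns was found for 254 members, of which 250 had a protein-coding type and 12 an NMD type, 4 of them with no coding type. The plot of stop-to-junction distances shows most members to the left of 50 bases.

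**Figure D1:**
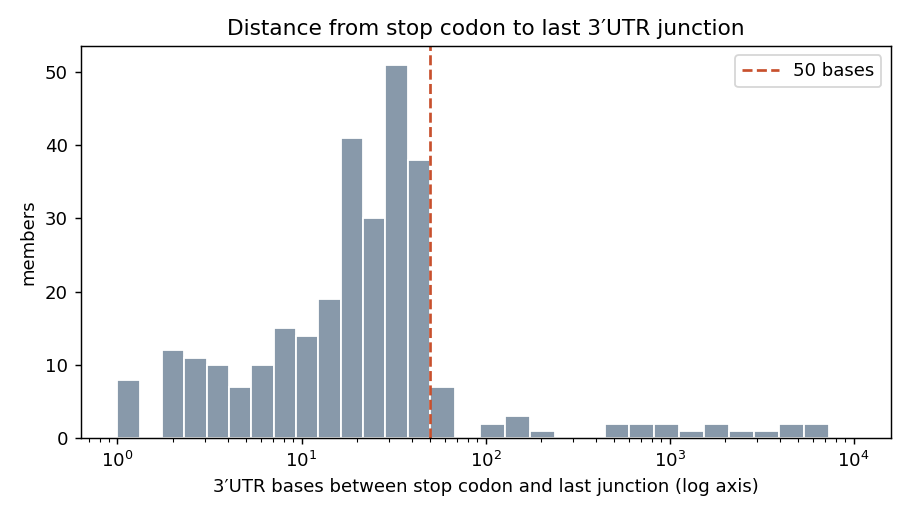
Number of the 294 members (vertical axis) by the 3′UTR bases between the stop codon and the last junction (horizontal log axis), with a dashed line at 50 bases. There are 266 members to the left of the line and 28 at or to the right of it.

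Examples of a short distance can be read directly from the transcripts. The GENCODE sequences below start at the stop codon, with the bases after the first 3′UTR junction in capitals. They come from members that changed between groups and have their junction within the 30 bases printed. Changed members with a distance of 50 bases or more are not shown. The sequences therefore illustrate short distances and do not show how common these are.
Msi1: tgaaacagggaggaggtagcaggagCGCCC
Plac8: taaggagctggatgGCAAGAGCTCTGGCTG
Dtd1: tagatgcggatgcaggagctcagCAAATTA
Mipol1: tgaatgccttctgctgctctagGTAATCTT
Sobp: taaaaaaataaaagGAACACTCGCTCCCAG
Irs1: tagcgtaactggacatcacagcagAATGAA
Atp2b4: tgagaATCAGAGTCGTCAAACTGTTCCATA
The junction followed the stop codon after 22 bases in Msi1, 11 in Plac8 and Sobp, 20 in Dtd1, 19 in Mipol1, 21 in Irs1 and 2 in Atp2b4. Over all 254 matched members, a stop codon stood where the feature was expected to begin in 249, as TGA in 108, TAA in 80 and TAG in 61.

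The deposited lines hold more than the UTR exons. The 2 kb extension was found on each exon line and not only on the last: in 756 of 778 junctions of the spliced features an annotated exon ended exactly 2000 bases inside the line, and in 0 at its end. The first line of a member was therefore a UTR piece with a median of 21 bases (quartiles 9 and 35) followed by the first 2 kb of the intron, which made up a median of 99.0% of the line. The last line was the last UTR exon with the 2 kb downstream of it. Introns of 2 kb or less are closed by the extension: the shortest intron in a member was 2007 bases (median of the first intron, 4174.5), and among 15902 single-line features that match a GENCODE stop codon and 3′ end, 562 had an intron after the stop codon, of 2000 bases or less in 550. So the members are genes with a long 3′UTR intron, and their TPM includes reads from the start of that intron.

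Reads were aligned without splicing, so junction reads were not counted and splicing itself was not measured. The coverage of each line, which was deposited beside the TPM, separates the intron side from the 3′ side, but is not scaled for the depth of a library. Of the 294 members, 101 were free of overlap on their own strand, 114 overlapped another feature, and 79 had coordinates that were listed more than once. In the last class StringTie has to assign reads between identical features, and at 77 of the 79 sites every other listed feature was at 0 in all 9 libraries. Results for the 79 are given apart. The 101 are called non-overlapping below, though opposite-strand features lie over some of them. Both lines were free of features on either strand in 85 of the 294 members.

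The last line had the higher coverage in most members that are free of overlap on their own strand. It had a higher coverage than the first line in all 9 libraries in 77 of the 101 non-overlapping members, while the first line was higher in all libraries in 4. In 54 of these members both lines were above 0 in every library, and their median log2 ratio of last to first line was 2.41, 2.41 and 2.66 in the WT libraries, 2.41, 2.68 and 2.55 in DIDO3ΔE16 and 2.47, 2.32 and 2.40 in DIDO3ΔCT+HADIDO3. The ranges of WT and DIDO3ΔE16 overlapped, as did those of WT and DIDO3ΔCT+HADIDO3. Of the overlapping members, 15 had a first line and 13 a last line listed at 0 in all libraries, compared with 3 and 0 of the non-overlapping ones.

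**Figure D2:**
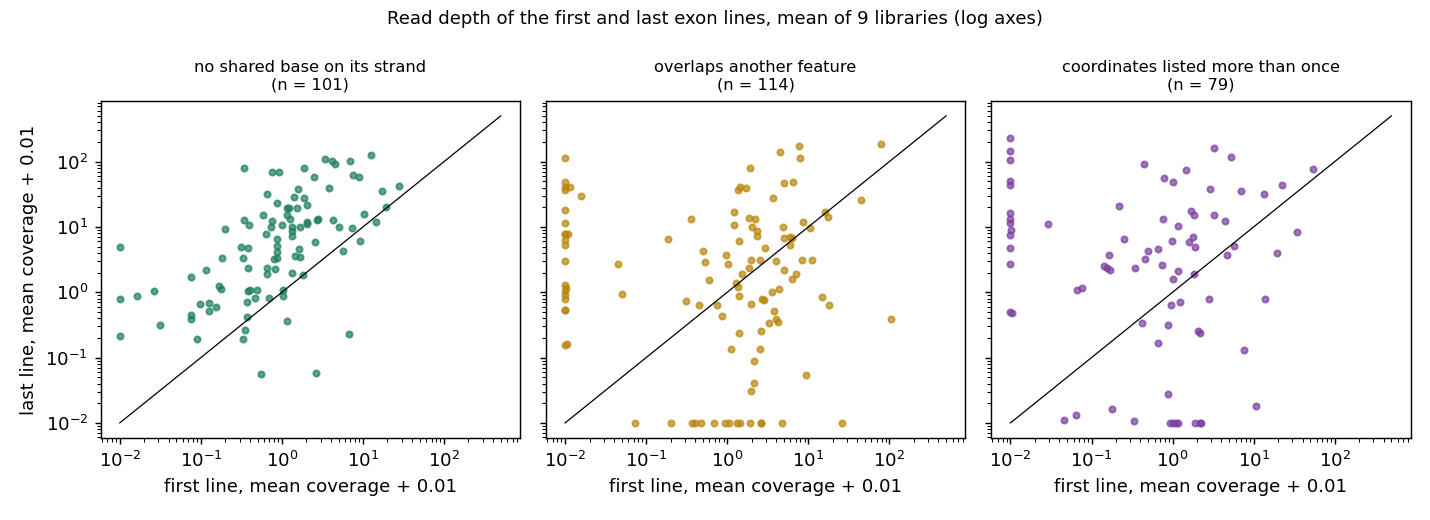
Mean coverage over the 9 libraries of the first line (horizontal) against the last line (vertical) of each member, both on log axes with 0.01 added, in 3 panels by overlap class. The diagonal marks equal coverage; points of the 101 non-overlapping members lie mostly above it, while points on the left and lower edges are lines listed at 0.

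Depth was 1.95 to 2.26 Gb in features in WT, 1.46 to 2.15 Gb in DIDO3ΔE16 and 2.15 to 2.61 Gb in DIDO3ΔCT+HADIDO3. The Dido1 feature uc008ojq.2 had 17.9, 16.8 and 13.7 TPM in WT, 0.546, 0.511 and 0.307 in DIDO3ΔE16 and 12.1, 11.5 and 10.9 in DIDO3ΔCT+HADIDO3. All 8 ESC markers were above 0 in every library. The 6 feeder fibroblast markers summed to 49.3 to 55.8 TPM in WT, 103 to 107 in DIDO3ΔE16 and 53.5 to 57.3 in DIDO3ΔCT+HADIDO3, and in the reconstituted line Thy1 made up most of the sum and Col3a1 was at 0. Dcn was at or near 0 in all libraries. Between DIDO3ΔE16 and WT, 4 of the 5 tested were higher, and between DIDO3ΔCT+HADIDO3 and WT 1 of 3 was higher and 2 lower. Their part in the results was not tested, and in bulk samples fewer cells of a type and less RNA per cell cannot be told apart. Of the ESC markers, 0 of 8 were called in DIDO3ΔE16, and in the reconstituted line Zfp42 was higher and Klf4 lower. The features read for Nanog (198, 270 and 1.03 TPM in WT) and Esrrb (1.93, 391 and 3.07) varied widely within WT. In DIDO3ΔE16 they had 445, 1048 and 560 and 453, 1228 and 1269 TPM. The lack of a call for these markers therefore does not show an unchanged level. The library identifiers of WT replicates 1 and 4 share a prefix that differs from that of the other 7 libraries. This prefix is called flow cell family here, and the labels do not say what it marks. It differs only within WT, so a fit with it as a covariate compares each mutant with WT replicate 2-3 alone.

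Members ranged from 0.0281 to 275 TPM in their mean over the 9 libraries, with a median of 5.93 TPM, compared with 10.02 TPM for single-line features above 0 in all libraries. The members with the highest TPM among those listed once were Rpl7l1, a ribosome biogenesis gene, Capzb, which encodes a subunit of the actin capping protein, Enc1, an actin-binding kelch protein, Ddi2, a ubiquitin-dependent protease, and the AP-1 subunit Junb. Rpl7l1 had 225, 234 and 223 TPM in WT, 305, 301 and 312 in DIDO3ΔE16 and 206, 197 and 188 in the reconstituted line. Capzb had 161, 174 and 158 TPM in WT and, with overlapping ranges, 197, 168 and 181 in DIDO3ΔE16 and 175, 159 and 159 in the reconstituted line. None of the 5 reached the threshold in DIDO3ΔE16. Rpl7l1, with a log2 fold change of 0.37 ± 0.03 (limma adjusted p = 0.0017), was higher in every DIDO3ΔE16 library than in every WT library, yet under the log2 limit of 0.7.

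The question of the next comparison is which spliced 3′UTR features differ in level when exon16 is deleted. Calls required a log2 difference of 0.7 or more in either direction with an adjusted p under 0.05 (limma, Benjamini-Hochberg over all features tested). Between DIDO3ΔE16 and WT, 39 of the 294 members were called (13.3%), 27 higher and 12 lower, beside 12.3% of the 25293 features tested, of which 8.17% were higher and 4.14% lower. The 3 libraries of each group did not overlap in 145 members, beside 43.5% of all features. The median log2 fold change was 0.03 over the members and -0.01 over all features. Of the non-overlapping members 21 of 101 were called, 15 higher and 6 lower, beside 15.5% of all non-overlapping features tested. Of the overlapping members 5 of 114 were called, beside 9.7% of all overlapping ones, and of the multi-listed members 13 of 79, beside 9.9%. These shares describe the classes and were not tested against each other.

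Among members listed once, 7 decreases were named, and those of Mipol1, Pfkfb2 and Dtd1 exceeded 1 on the log2 scale. Msi1, which encodes the RNA-binding translational regulator Musashi (chr5:115451499-115456202, mm10), had 93.2, 93.2 and 104 TPM in WT, 56.1, 55.7 and 56.9 in DIDO3ΔE16 and 94.6, 96.9 and 90.9 in the reconstituted line. Only the DIDO3ΔE16 libraries were low, with a log2 fold change of -0.84 ± 0.06 (limma adjusted p = 0.0017) against WT. The coverage of its last line was 111, 95.8 and 109 in WT and 42.7, 57.1 and 64.3 in DIDO3ΔE16, and that of its first line 5.74, 4.25 and 4.07 and 2.73, 2.25 and 3.18. The other Msi1 feature, which shares no base with it, moved likewise (21.01 ± 2.17 TPM in WT and 12.7 ± 1.55 in DIDO3ΔE16, SD, n = 3), so the share of the member in its gene differed by -0.06 ± 0.14 (limma adjusted p = 0.86).

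Dtd1, a D-aminoacyl-tRNA deacylase gene (chr2:144747054-144770747), had 28.2, 27.4 and 27.99 TPM in WT, 12.8, 15.1 and 14.1 in DIDO3ΔE16 and 13.7, 12.7 and 12.6 in the reconstituted line. Both mutants were below every WT library, at -1.05 ± 0.08 (limma adjusted p = 0.0016) and -1.19 ± 0.06 (limma adjusted p = 0.00061). Plac8 (chr5:100551733-100556490) had 15.2, 14.5 and 14.1 TPM in WT, 8.17, 8.65 and 9.73 in DIDO3ΔE16 and 5.48, 4.798 and 5.14 in the reconstituted line. The 3 groups did not overlap, and the log2 fold change was -0.78 ± 0.09 (limma adjusted p = 0.0045) in DIDO3ΔE16 and -1.58 ± 0.08 (limma adjusted p = 0.00059) in the reconstituted line, the lower of the 2 mutants by a direct comparison of 0.79 ± 0.11 (limma adjusted p = 0.0043).

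Snx12, a sorting nexin gene on the X chromosome (chrX:101095786-101102399), had 16.8, 17.4 and 15.8 TPM in WT, 9.85, 10.03 and 10.1 in DIDO3ΔE16 and 11.7, 15.7 and 17.1 in the reconstituted line. The DIDO3ΔE16 libraries lay close together below the others, with -0.79 ± 0.06 (limma adjusted p = 0.0018). Mipol1 (chr12:57460966-57469041) had 1.97, 1.25 and 1.77 TPM in WT, 0.190, 0.447 and 0.462 in DIDO3ΔE16 and 1.68, 1.61 and 1.85 in the reconstituted line. It gave the largest decrease among members listed once, -2.01 ± 0.35 (limma adjusted p = 0.016), and the adjusted p rose to 0.053 without WT replicate 1 and 0.054 without WT replicate 4. The other 5 Mipol1 features fell with it, from a sum of 9.41 ± 0.893 to 2.29 ± 0.447 TPM (SD, n = 3), with a change in share of 0.05 ± 0.43 (limma adjusted p = 0.97).

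Mxra7 and Pfkfb2, which encodes a bifunctional enzyme of fructose-2,6-bisphosphate metabolism, complete the decreases named by rule. Mxra7 had 10.6, 9.74 and 8.24 TPM in WT and 5.78, 6.05 and 4.27 in DIDO3ΔE16, which gave a log2 difference of -0.89 ± 0.18 (limma adjusted p = 0.024). Pfkfb2 had 1.54, 2.29 and 1.71 and 0.620, 0.982 and 0.937 TPM, a log2 fold change of -1.10 ± 0.25 (limma adjusted p = 0.035). Among the decreases of members listed once, these 2 calls were lost most often. That of Mxra7 was lost without DIDO3ΔE16 replicate 1 (limma adjusted p = 0.058), WT replicate 1 (0.075) or WT replicate 2-3 (0.077). That of Pfkfb2 was lost without any 1 of the 6 libraries (limma adjusted p 0.059 to 0.089). With the flow cell family as a covariate, a comparison with WT replicate 2-3 alone, Mxra7 differed by -0.92 on the log2 scale.

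The 8 increases named ranged from 1.88 to 3.09 on the log2 scale, and all but that of Cd80 started near or under 1 TPM in WT. Gm4303 (chr10:100346860-100354002) had 0.873, 1.23 and 0.974 TPM in WT, 13.7, 9.54 and 7.25 in DIDO3ΔE16 and 0.515, 1.31 and 1.29 in the reconstituted line. DIDO3ΔE16 stood apart from both other groups, with 3.09 ± 0.28 (limma adjusted p = 0.0027). Sobp (chr10:43000500-43020992), related to the sine oculis binding protein, had 0.573, 0.267 and 0.368 TPM in WT, 3.52, 3.02 and 3.72 in DIDO3ΔE16 and 0.315, 0.160 and 0.198 in the reconstituted line, a log2 fold change of 2.79 ± 0.27 (limma adjusted p = 0.003). Its last line, which overlaps nothing, carried this change with a coverage of 0.582, 0.233 and 0.327 in WT and 2.32, 2.62 and 3.58 in DIDO3ΔE16. The first line shares all its bases with a single-line Sobp feature and was listed at or near 0. That feature had 1.72 ± 0.184 TPM in WT and 1.499 ± 0.681 in DIDO3ΔE16 (SD, n = 3), and the share of the member rose by 3.13 ± 0.46 (limma adjusted p = 0.026).

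Acss2, which encodes the nuclear and cytosolic acetyl-CoA synthetase (chr2:155574660-155587724), had 0.840, 0.859 and 0.819 TPM in WT, 4.28, 4.19 and 3.82 in DIDO3ΔE16 and 7.45, 7.801 and 7.69 in the reconstituted line. Both mutants were higher than WT, at 2.10 ± 0.11 (limma adjusted p = 0.00076) and 2.95 ± 0.09 (limma adjusted p = 0.0002), and the reconstituted line was the higher of the 2. In WT all coverage was on the intron side: the first line had 1.31, 1.15 and 1.11 and the last line was listed at 0 in the 3 libraries. In DIDO3ΔE16 the last line had 2.49, 3.58 and 3.56 and the first 1.03, 0.841 and 0.936. In DIDO3ΔCT+HADIDO3 the last line had 7.03, 6.54 and 7.86. The other Acss2 features, at separate places in the gene, summed to 31.1 ± 3.18 TPM in WT, 29.5 ± 1.51 in DIDO3ΔE16 and 50.8 ± 5.63 in the reconstituted line (SD, n = 3), so the share of the member rose by 2.23 ± 0.15 (limma adjusted p = 0.003) and 2.34 ± 0.15 (limma adjusted p = 0.0034).

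Sh3bgr (chr16:96224561-96230933) had 0.629, 0.613 and 0.580 TPM in WT, 3.18, 2.66 and 2.34 in DIDO3ΔE16 and 0.601, 0.380 and 0.616 in the reconstituted line, and rose by 1.93 ± 0.16 (limma adjusted p = 0.0022). The feature uc007ljs.1 (chr11:99798747-99811892), which has no symbol, had 0.620, 0.925 and 0.451, 5.86, 4.52 and 4.52 and 0.827, 0.899 and 0.485 TPM, a rise of 2.70 ± 0.28 (limma adjusted p = 0.0036). Both were high in the DIDO3ΔE16 libraries alone. Nppc, the C-type natriuretic peptide gene, had 0.355, 0.0875 and 0.186 and 1.12, 1.22 and 0.748 TPM in WT and DIDO3ΔE16. Its rise of 1.88 ± 0.39 (limma adjusted p = 0.028) was lost without WT replicate 2-3 (adjusted p = 0.056), WT replicate 4 (0.081) or any of the DIDO3ΔE16 libraries (0.054 to 0.090).

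Mtus2, a microtubule-associated protein gene (chr5:148306686-148318065), had 0.450, 0.428 and 0.520 TPM in WT, 5.18, 4.88 and 3.26 in DIDO3ΔE16 and 3.44, 0.715 and 0.643 in the reconstituted line, where replicate 1 lay within the range of the DIDO3ΔE16 libraries. The log2 fold change was 2.92 ± 0.23 (limma adjusted p = 0.0019). With the flow cell family as a covariate, a comparison with WT replicate 2-3 alone, it was 3.02. Its last line shares bases with 3 listed single-line Mtus2 features and was at 0 in WT, 2.67, 3.19 and 2.35 in DIDO3ΔE16 and 2.59, 0 and 0 in the reconstituted line. The first line, which overlaps nothing, had 1.005, 0.822 and 1.01 in WT, 1.27, 1.86 and 1.43 in DIDO3ΔE16 and 1.68, 1.52 and 1.66 in the reconstituted line. The most abundant of the 3 sharing features, uc009aoq.2, had 16.5 ± 0.242 TPM in WT and 39.9 ± 17.6 in DIDO3ΔE16 (SD, n = 3). It was not called (limma adjusted p = 0.14), and DIDO3ΔE16 replicate 3 had 19.5 TPM, near the WT libraries. In that replicate the other sharing features, uc009aop.2 and uc009aon.2, had 16.3 and 15.1 TPM. Both were at 0 in WT and at 0.105 TPM or less in the other DIDO3ΔE16 replicates. How StringTie divided reads between the shared features was not tested.

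**Figure D3:**
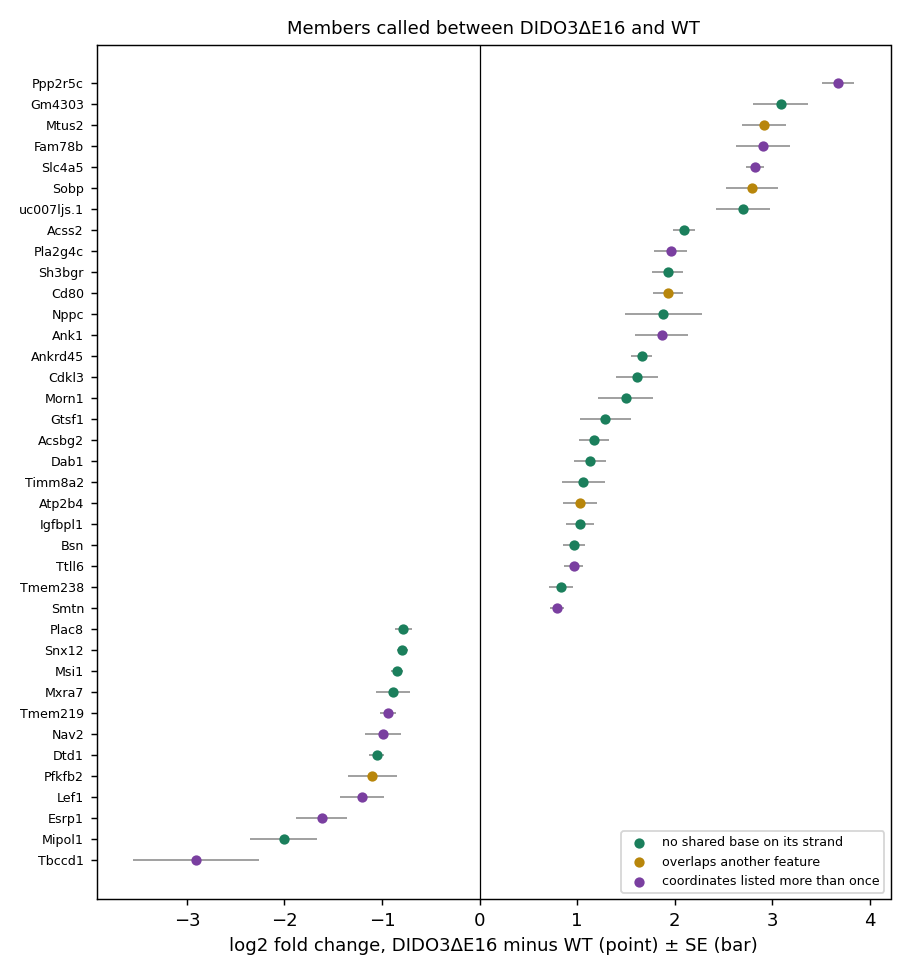
The members called between DIDO3ΔE16 and WT, with the log2 fold change (point, horizontal axis) and its SE (bar), coloured by overlap class and with 1 higher member left out. Increases lie to the right of 0 and the 12 decreases to the left, from Ppp2r5c at 3.68 to Tbccd1 at -2.91.

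The reconstituted line was compared with WT in the same way. Between DIDO3ΔCT+HADIDO3 and WT, 63 of the 294 members were called (21.4%), 30 higher and 33 lower, beside 13.5% of the 25337 features tested, of which 7.81% were higher and 5.67% lower. The groups did not overlap in 160 members, beside 46.6% of all features. Without scaling between libraries 59 were called, 36 higher and 23 lower. The non-overlapping members accounted for 32 of the 63, or 31.7% of 101, beside 18.8% of all non-overlapping features. Of the overlapping members 17 of 114 were called, beside 10.6%, and of the multi-listed members 14 of 79, beside 9.14%. The median log2 fold change was -0.07 over the members and -0.01 over all features tested. This comparison shares its WT libraries with the previous one.

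Nlrp4f, of the NLRP family (chr13:65175111-65181563), had 36.2, 32.8 and 28.5 TPM in WT, 34.2, 33.2 and 34.9 in DIDO3ΔE16 and 2.605, 2.396 and 2.26 in the reconstituted line. The reconstituted line was low and the other groups overlapped, with -3.78 ± 0.12 (limma adjusted p = 0.00021) in DIDO3ΔCT+HADIDO3 and 0.01 ± 0.09 (limma adjusted p = 0.94) in DIDO3ΔE16. Both lines took part, the first at 20.5, 15.02 and 12.7 in WT and 0.754, 0.815 and 1.22 in the reconstituted line and the last at 27.3, 22.05 and 19.9 and 2.55, 2.11 and 2.17. The feature 9130008F23Rik (chr17:40873482-40879990), with 211 bases before its junction and both a coding and an NMD type, had 1.65, 2.25 and 1.66 TPM in WT, 1.198, 1.49 and 1.85 in DIDO3ΔE16 and 0.398, 0.340 and 0.410 in the reconstituted line, a decrease of -2.09 ± 0.18 (limma adjusted p = 0.002) in the last.

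Among the increases in the reconstituted line, Irs1, the insulin receptor substrate gene (chr1:82231105-82286797), had 2.28, 1.99 and 2.01 TPM in WT, 3.39, 3.95 and 3.12 in DIDO3ΔE16 and 8.65, 9.62 and 10.8 in the reconstituted line. The 3 groups did not overlap, with 2.06 ± 0.11 (limma adjusted p = 0.00063) in the reconstituted line and 0.64 ± 0.14 (limma adjusted p = 0.029) in DIDO3ΔE16, the latter under the log2 limit. Atp2b4, a plasma membrane calcium pump gene (chr1:133700674-133711633), had 0.171, 0.144 and 0.221, 0.483, 0.567 and 0.417 and 1.19, 1.596 and 1.81 TPM in WT, DIDO3ΔE16 and the reconstituted line. It rose in both, by 1.03 ± 0.18 (limma adjusted p = 0.015) and 2.46 ± 0.21 (limma adjusted p = 0.0019). Here the intron side carried the reads, with a first line of 0.415, 0.344 and 0.539 in WT and 3.33, 4.25 and 5.39 in DIDO3ΔCT+HADIDO3. Atp2b4 features that share no base with the member were higher as well. In WT, DIDO3ΔE16 and the reconstituted line, uc007cqw.1 had 1.78 ± 0.201, 5.91 ± 0.693 and 5.44 ± 0.177 TPM (SD, n = 3). In the same order, uc007cqx.1 had 1.04 ± 0.356, 2.09 ± 0.381 and 11.7 ± 1.31. The other Atp2b4 features, which overlap, varied widely within groups. The feature uc033hqv.1 (chr2:152756732-152765762), with 108 bases before its junction and 2 opposite-strand features over its first line, had 3.47, 3.49 and 2.34 TPM in WT, 3.72, 3.95 and 4.51 in DIDO3ΔE16 and 14.3, 15.8 and 15.4 in DIDO3ΔCT+HADIDO3, a rise of 2.18 ± 0.17 (limma adjusted p = 0.0016).

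**Figure D4:**
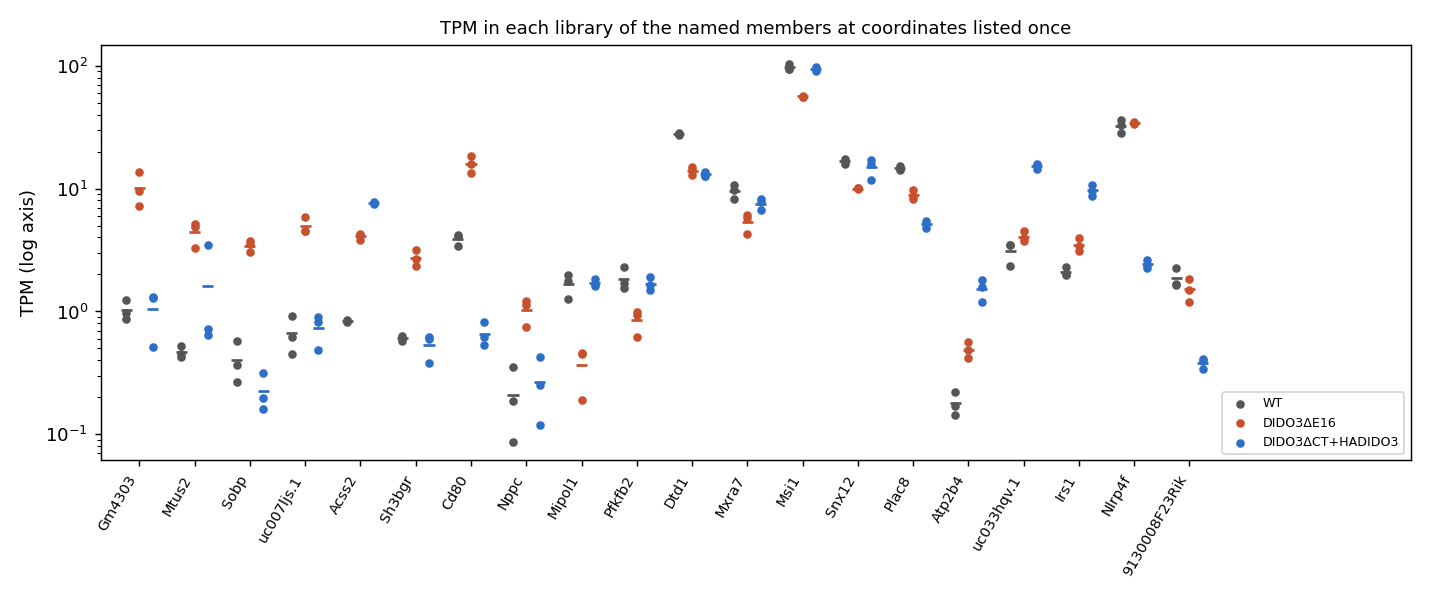
TPM (vertical log axis) in each of the 9 libraries for the members listed once that were named by rule, with points for libraries and short lines for the mean of 3. Msi1, Snx12 and Mipol1 are low in DIDO3ΔE16 alone, Dtd1 and Plac8 in both mutants, and Cd80 lies highest in DIDO3ΔE16 and lowest in DIDO3ΔCT+HADIDO3.

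Calls against WT in both mutants, which share the WT libraries, were found for 14 members (4.76%), beside 3.88% of the 24472 features tested in both. Over all features, 1.7% were higher in both, 0.682% lower in both and 1.49% called in opposite directions. Of these, 4 were higher in both, among them Atp2b4, Acss2 and Slc4a5, and 3 lower in both (Dtd1, Plac8 and Esrp1). The other 7 (2.38%) moved in opposite directions: Ankrd45, Ttll6, Timm8a2, Cd80, Dab1 and Tmem238 were higher in DIDO3ΔE16 and lower in DIDO3ΔCT+HADIDO3, and Lef1 the reverse. Compared directly, DIDO3ΔE16 and DIDO3ΔCT+HADIDO3 differed in 89 of the 294 members (30.3%), 52 higher and 37 lower in DIDO3ΔE16, beside 22.6% of the 25550 features tested, of which 11.5% were higher and 11% lower. The groups did not overlap in 176 members, beside 54.4% of all features. By class, 42 of 101 non-overlapping members were called beside 29.7%, 26 of 114 overlapping members beside 19.5% and 21 of 79 multi-listed members beside 16.5%.

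Cd80, the ligand of CD28 and CTLA-4 (chr16:38486402-38497739), had 4.11, 4.196 and 3.397 TPM in WT, 13.4, 18.4 and 15.9 in DIDO3ΔE16 and 0.622, 0.828 and 0.534 in the reconstituted line. No library of one group reached another group, with 1.93 ± 0.15 (limma adjusted p = 0.002) in DIDO3ΔE16 and -2.49 ± 0.20 (limma adjusted p = 0.0016) in the reconstituted line. Its reads were on the last line, which overlaps an opposite-strand feature, and its first line, shared with 2 Cd80 features, was listed at or near 0. Those features summed to 6.57 ± 0.642 TPM in WT, 13.2 ± 1.51 in DIDO3ΔE16 and 1.97 ± 0.672 in the reconstituted line (SD, n = 3), in the same order as the member.

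The multi-listed members are given apart, since their TPM depends on how reads were divided between features. Ppp2r5c, a regulatory subunit gene of phosphatase PP2A, had 0.456, 0.517 and 0.418 TPM in WT, 8.26, 7.91 and 6.17 in DIDO3ΔE16 and 4.12, 0.830 and 0.878 in the reconstituted line, a log2 fold change of 3.68 ± 0.17 (limma adjusted p = 0.00053) in DIDO3ΔE16. Replicate 1 of the reconstituted line stood apart from its group here as it did for Mtus2, and in both members the last line was at 0 in the libraries with a low TPM. The last line of Ppp2r5c shares bases with single-line features of the gene. Of these, uc007pbm.2 had 85.4, 77.9 and 92.9 TPM in WT and 159, 165 and 87.6 in DIDO3ΔE16. In the reconstituted line uc007pbm.2 had 28.8, 59.6 and 59.2. The feature uc007pbl.2 was at 0 in WT and at 0.243, 0.233 and 76.0 TPM in DIDO3ΔE16. In the reconstituted line uc007pbl.2 had 23.5, 0 and 0. How StringTie divided reads between these features was not tested. Slc4a5, a sodium bicarbonate cotransporter gene, had 4.38, 4.98 and 4.75, 33.2, 34.3 and 38.8 and 11.5, 13.6 and 10.8 TPM, a rise of 2.82 ± 0.09 (limma adjusted p = 0.00024) in DIDO3ΔE16. Fam78b had 0.135, 0.274 and 0.166 TPM in WT and 1.63, 2.32 and 2.56 in DIDO3ΔE16, a rise of 2.91 ± 0.28 (limma adjusted p = 0.003).

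Of the decreases, Esrp1, an epithelial splicing regulator gene, had 2.22, 2.14 and 1.88 TPM in WT, 0.476, 0.937 and 0.568 in DIDO3ΔE16 and 0.651, 0.550 and 0.555 in the reconstituted line. It fell in both mutants, at -1.62 ± 0.26 (limma adjusted p = 0.013) and -1.75 ± 0.14 (limma adjusted p = 0.0017), with its last line listed at 0 in all 9 libraries, so its TPM came from the intron side. The other Esrp1 features fell likewise, and the share differed by 0.10 ± 0.24 (limma adjusted p = 0.86). Tbccd1 had 16.3, 3.61 and 14.5 TPM in WT, 1.08, 1.601 and 1.08 in DIDO3ΔE16 and 13.5, 5.55 and 14.6 in the reconstituted line. WT replicate 2-3 and replicate 2 of the reconstituted line were low within their groups. The change of -2.91 ± 0.65 (limma adjusted p = 0.034) was lost without WT replicate 1 (adjusted p = 0.089) or 4 (0.095) and without any DIDO3ΔE16 library (0.085 to 0.10). With the flow cell family as a covariate, a comparison with WT replicate 2-3 alone, the log2 fold change was -1.53. Nav2, a neuron navigator gene with 6 lines, had 3.78, 4.94 and 4.24 and 2.27, 1.83 and 2.58 TPM in WT and DIDO3ΔE16, a change of -0.99 ± 0.18 (limma adjusted p = 0.019) that was lost without WT replicate 2-3 (0.058) or 4 (0.060) or DIDO3ΔE16 replicate 1 (0.059) or 2 (0.052).

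The gene's other features served as the reference for the share of each member in its gene, which 202 members allow. Between DIDO3ΔE16 and WT the share changed in 12 of 193 members tested (6.22%), 9 higher and 3 lower, beside 6.31% of 11538 features, of which 3.07% were higher and 3.24% lower. With reference features that share no base with the member, 7 of 99 were called, 5 higher and 2 lower. Beside these, 321 of 8979 features were higher and 341 lower. The count was 6 without WT replicate 1, 7 without WT replicate 2-3, 5 without WT replicate 4, 7 without DIDO3ΔE16 replicate 2 and 4 without DIDO3ΔE16 replicate 3. The largest increases were those of Ppp2r5c at 3.50 ± 0.21 (limma adjusted p = 0.002), Sobp, Acss2 and Mtus2 at 1.36 ± 0.23 (limma adjusted p = 0.038), of which Acss2 and Ppp2r5c were called with any library left out. That of Sobp was lost without DIDO3ΔE16 replicate 3 (adjusted p = 0.087) or any WT library (0.062 to 0.090), and that of Mtus2 without DIDO3ΔE16 replicate 1 (0.097) or 2 (0.12) or any WT library (0.094 to 0.11). For Ppp2r5c, Sobp and Mtus2 the reference includes features that share bases with the member. How reads were divided between these was not tested, so their shares can depend on it. Of the decreases, Snx12 had -1.02 ± 0.11 (limma adjusted p = 0.012), with a reference of 60.1 ± 1.95 TPM in WT and 73.3 ± 0.435 in DIDO3ΔE16 (SD, n = 3).

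In the other comparisons the share changed in 22 of 193 members between DIDO3ΔCT+HADIDO3 and WT, 10 higher and 12 lower, beside 5.84% of 11767 features, of which 2.98% were higher and 2.86% lower. The count was 11 without WT replicate 1, 14 without WT replicate 2-3, 11 without replicate 1 of the reconstituted line and 12 without its replicate 2 or 3. It changed in 36 of 194 members between DIDO3ΔE16 and DIDO3ΔCT+HADIDO3, 18 in each direction, beside 16.8% of 11775 features, of which 8.19% were higher and 8.59% lower. With references that share no base, 21 of 100 were called, beside 891 higher and 893 lower of 9126 features. The even split of the 36 was not kept when 1 library was left out: 17 to 20 were then higher and 9 to 12 lower. Nlrp4f fell as a share of its gene in the reconstituted line, at -1.64 ± 0.22 (limma adjusted p = 0.02).

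The ratio of the last to the first line, in which depth cancels apart from the 0.1 added, compares the 3′ end with the start of the intron. Between DIDO3ΔE16 and WT it was called in 2 of 131 members tested, 1 higher and 1 lower, which is 1.53%, or 0.763% in each direction. Only spliced features have this ratio, so the features tested are the members, with at most 1 other, and there is no separate background. Both are multi-listed, and without WT replicate 1 the count was 1. None of the 92 members listed once was called by limma, with 15 at an unadjusted p under 0.05. Opa1, a mitochondrial inner membrane fusion gene, had a first-line coverage of 1.28, 1.43 and 1.34 in WT, 7.62, 10.6 and 11.3 in DIDO3ΔE16 and 12.5, 14.99 and 2.22 in the reconstituted line, and a last line of 41.97, 34.2 and 36.8, 21.7, 31.6 and 33.9 and 37.8, 36.1 and 47.8. The log2 ratio fell by 3.15 ± 0.15 (limma adjusted p = 0.00024) in DIDO3ΔE16 at a TPM that changed by -0.12. In the ratio, replicate 3 of the reconstituted line lay close to the WT libraries and its other replicates close to DIDO3ΔE16. The ratio of Slc4a5 rose by 1.85 ± 0.20 (limma adjusted p = 0.011), lost without WT replicate 1 (adjusted p = 0.061) or DIDO3ΔE16 replicate 1 (0.051).

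The ratio was called in 9 of 135 members between DIDO3ΔCT+HADIDO3 and WT, 6 higher and 3 lower, where all 136 spliced features tested gave 6.62% (4.41% higher and 2.21% lower). The balance of directions was not stable: it was 3 higher and 5 lower with a coverage of at least 1 in both lines, and 2 higher and 4 lower without WT replicate 4. It was called in 12 of 138 between DIDO3ΔE16 and DIDO3ΔCT+HADIDO3, 6 in each direction, where all 139 gave 8.63%, or 4.32% in each direction. These counts moved with single libraries. The first was 3 without WT replicate 1, 5 without replicate 1 of the reconstituted line and 4 without its replicate 2 or 3. The second was 1, 6 and 4 without DIDO3ΔE16 replicates 1, 2 and 3, and 1 and 3 without replicates 1 and 3 of the reconstituted line.

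Enc1 (chr13:97246754-97255040), which overlaps no other feature, had a first-line coverage of 13.8, 11.1 and 9.68 in WT, 6.24, 10.7 and 10.5 in DIDO3ΔE16 and 17.5, 16.5 and 18.4 in the reconstituted line. Its last line had 155, 135 and 127, 114, 157 and 174 and 89.02, 82.02 and 94.6. In the reconstituted line the intron side was high and the 3′ side low, so that the log2 ratio differed by -1.26 ± 0.10 (limma adjusted p = 0.004) from WT, while the TPM was 166, 168 and 154 in WT and 99.4, 96.3 and 91.5 in the reconstituted line, a change of -0.86 ± 0.06 (limma adjusted p = 0.00099). Capzb, an overlapping member, showed the same direction at a TPM that differed by -0.09, with a first line of 6.56, 5.03 and 5.69 in WT, 3.45, 5.01 and 3.62 in DIDO3ΔE16 and 12.7, 11.9 and 15.3 in the reconstituted line, a last line of 181, 168 and 154, 144, 162 and 194 and 193, 166 and 200.4, and a ratio that changed by -1.04 ± 0.13 (limma adjusted p = 0.014).

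Spag17 and Tmem238 were chosen after their values were seen. Spag17, a component gene of the ciliary axoneme, went the other way: its first line had 1.14, 1.21 and 0.834 in WT and 0.114, 0.152 and 0.303 in DIDO3ΔCT+HADIDO3, its last line 33.8, 32.2 and 30.2 and 28.9, 28.8 and 33.7, and its ratio rose by 1.96 ± 0.22 (limma adjusted p = 0.01). Tmem238 had a first line of 0.976, 1.89 and 1.88 in DIDO3ΔE16 and 0.951, 1.26 and 1.38 in the reconstituted line, a last line of 4.73, 6.53 and 7.09 and 1.27, 1.33 and 2.04, and a ratio that was higher in DIDO3ΔE16 by 1.59 ± 0.20 (limma adjusted p = 0.021).

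**Figure D5:**
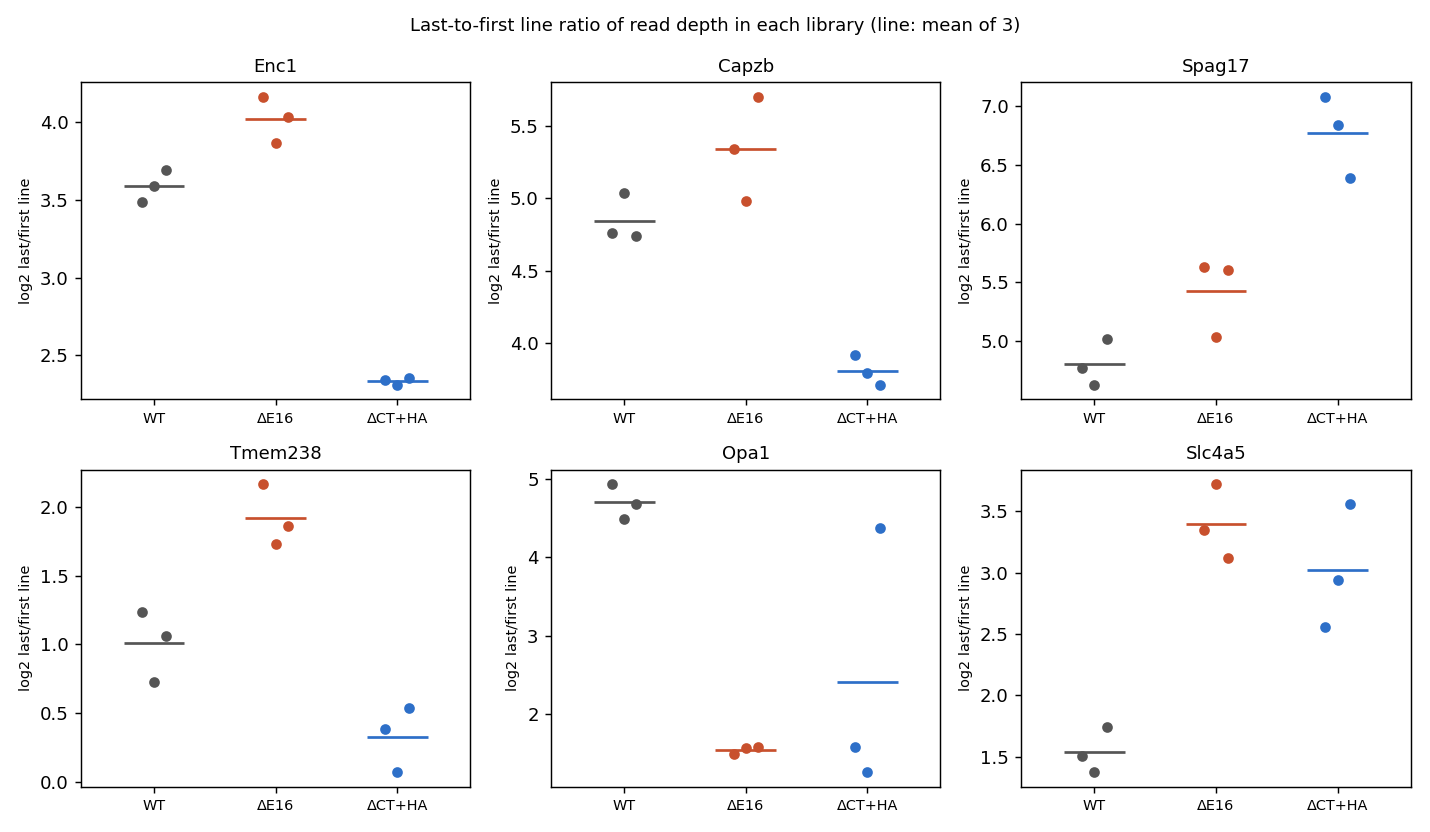
Log2 ratio of last-line to first-line coverage (vertical axis, 0.1 added to each) in each library of 6 members, with a line at the mean of 3. Enc1 and Capzb are lowest in DIDO3ΔCT+HADIDO3 and Spag17 highest, Opa1 is low in DIDO3ΔE16 and in 2 of 3 libraries of the reconstituted line, and Slc4a5 is lowest in WT.

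The 28 members with at least 50 bases before the last junction are those that the distance rule would mark as NMD substrates. Of these, 4 were called between DIDO3ΔE16 and WT and 8 between DIDO3ΔCT+HADIDO3 and WT, compared with 35 and 55 of the other 266. The share called was 14.3% and 28.6% of the 28, beside 12.3% and 13.5% of all features, so that in DIDO3ΔE16 was near the background. The share of the 28 in DIDO3ΔCT+HADIDO3 rests on few members and was not tested. The median log2 fold change of the 28 was 0.16 in DIDO3ΔE16 and 0.21 in DIDO3ΔCT+HADIDO3, and that of the 266 was 0.01 and -0.07. In DIDO3ΔE16 these included Bsn and Fam78b (higher) and Nav2 (lower). Bsn, which encodes the presynaptic scaffold Bassoon and was chosen after its values were seen, as were the next 2 genes, had 4.75, 5.83 and 4.73 TPM in WT, 10.7, 9.98 and 10.8 in DIDO3ΔE16 and 7.47, 8.13 and 8.27 in the reconstituted line.

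In the reconstituted line Epha4, uc033hqv.1 and Kcna6 were among those higher and Mocs2, 9130008F23Rik, Trnp1 and Hrk lower. Epha4, an ephrin receptor gene with 823 bases before its junction and an NMD type among its GENCODE transcripts, had 6.75, 6.100 and 6.19 TPM in WT, 9.25, 9.55 and 9.69 in DIDO3ΔE16 and 23.6, 22.9 and 25.6 in the reconstituted line, a rise of 1.81 ± 0.07 (limma adjusted p = 0.00034) in the last. Hrk, a pro-apoptotic BH3-only gene, had 15.3, 16.2 and 13.99, 9.12, 10.97 and 10.2 and 8.87, 9.53 and 9.66 TPM, a decrease of -0.78 ± 0.08 (limma adjusted p = 0.0027). All libraries of both mutants lay below WT for Hrk and above WT for Epha4. Of the 12 members with an NMD type, 2 were called in DIDO3ΔE16 (both higher), beside 12.3% of all features, and 4 in DIDO3ΔCT+HADIDO3 (2 in each direction), beside 13.5%, counts too small to set apart from the background.

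The NMD machinery and genes known for NMD-coupled splicing were read from their most abundant feature, since none of these list genes has a member. Of 16 NMD factors, 1 was higher in DIDO3ΔE16, Smg6, which encodes the NMD endonuclease, with 2.596 ± 1.37 TPM in WT and 12.1 ± 4.31 in DIDO3ΔE16 (SD, n = 3), a log2 change of 2.16, limma adjusted p = 0.029. In DIDO3ΔCT+HADIDO3 1 of the 16 was lower, Smg9 at -0.73, limma adjusted p = 0.0012. Of 9 exon junction complex genes Magohb, a core subunit paralog, was lower in DIDO3ΔE16 (-0.97, limma adjusted p = 0.044), and Magohb (-1.92, limma adjusted p = 0.0036) and Rnps1 (-0.89, limma adjusted p = 0.015) in DIDO3ΔCT+HADIDO3. Of 7 measured transcripts known as NMD-sensitive, the stress genes Gadd45b (-1.16, limma adjusted p = 0.0017) and Trib3 (-0.86, limma adjusted p = 0.0047) were lower in DIDO3ΔE16 and Gadd45a (-1.41, limma adjusted p = 0.00066) and Trib3 (-1.19, limma adjusted p = 0.00049) in DIDO3ΔCT+HADIDO3, and none was higher. Of the SR and hnRNP genes with poison exons, 1 of 34 tested was lower in DIDO3ΔE16, Tia1 at -0.91, limma adjusted p = 0.0024, and in DIDO3ΔCT+HADIDO3 1 of 33 was higher, Ptbp1 at 1.03, limma adjusted p = 0.0036, and 1 lower, Ptbp2 at -0.81, limma adjusted p = 0.0073.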

How the data were processed

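The TPM values were made by the authors with StringTie (1.3.3) in reference-only mode from BWA-MEM (0.7.15) alignments to mm10, deduplicated with Picard, over UCSC 3′UTRs with 2 kb added, and were deposited per feature and library with the coverage of each exon line. The headers name no strand option. Of the 4 WT samples in the labels, replicates 2 and 3 carry 1 library description and counted once. The authors tested TPM with edgeR; because TPM are not counts, limma (3.58.1, R 4.3.3) was used here on log2(TPM + 0.1), so folds of low features are understated. Scaling between libraries used the mean log2 ratio after trimming 30% from either end, and each comparison was fitted on every feature above 0 in its 6 libraries, with trend and robust moderation, 2-sided, with Benjamini-Hochberg adjustment. Share used the summed TPM of the gene's features at other coordinates, and line ratios used coverage + 0.1. Coordinates and stop codons were compared with GENCODE M21 on the same build. Tables used Python (3.11.15), pandas (2.3.3) and numpy (2.4.6).

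On simulated libraries for DIDO3ΔE16 and WT (5 sets, 25293 features), 32.4% of features changed by a log2 of 1 were recovered and 55.2% of those changed by 2, and 4.4 false calls were made per set, so a member that was not called can still have changed. TPM carry no counting interval, and counts of reads were not used. The members, gene lists and tests were chosen with earlier results of these data known. Members named by level were called, at 1 TPM or more in either group, without overlap between groups. They are the 8 largest changes each way in DIDO3ΔE16 and the 4 in DIDO3ΔCT+HADIDO3 among members listed once, and the 3 among multi-listed members. The 4 each way in share and in line ratio needed the call and the TPM, but groups could overlap. The 5 with the highest TPM and the genes of the lists needed no call. Alternatives covered pseudocounts, filters, scaling, moderation, thresholds, references, flow cell family, the replicate block and leaving out each library. The values of 1 member are not reported here, though it is counted.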

Additional observations from a re-analysis of the deposited data

Results flagged for a closer look

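In 7 of the 294 members (2.38%, beside 1.49% of the features tested against WT in both mutants, with the WT libraries shared) the difference from WT was past the thresholds in opposite directions in the 2 mutants (limma with Benjamini-Hochberg adjustment). The mutants also differed past the thresholds when compared with each other. That comparison uses the same mutant libraries and largely follows from the opposite calls, so it is no separate evidence. The log2 difference between the mutants was 4.41 for Cd80, 2.60 for Ttll6, a tubulin glutamylase gene, 2.50 for Ankrd45, 2.08 for Dab1, the adaptor of reelin signalling, 1.91 for Timm8a2, 1.88 for Tmem238 and -2.91 for Lef1, a transcription factor of Wnt signalling. Ankrd45 had 10.9, 10.9 and 8.97 TPM in WT, 31.04, 34.4 and 36.8 in DIDO3ΔE16 and 5.86, 6.14 and 6.05 in DIDO3ΔCT+HADIDO3. Dab1 had 4.86, 5.22 and 3.81, 9.08, 11.7 and 11.3 and 2.34, 2.57 and 2.53 TPM in the same order. In both, the 3 groups did not overlap. Lef1 and Ttll6 are at multi-listed coordinates, and all Lef1 reads were on its first line. With 3 libraries a group, no library was tested as an outlier.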

How the results depend on the processing

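The replicate numbers did not pair the samples: deviations of same-numbered libraries correlated at -0.019 to 0.023. With the replicate number as a block, limma called 0 members between DIDO3ΔE16 and WT in level, share and line ratio (66, 19 and 14 at an unadjusted p under 0.05). It called 0 between DIDO3ΔCT+HADIDO3 and WT (84, 29 and 19). In these fits WT replicate 4 and mutant replicate 3 have no partner of their number, which leaves fewer degrees of freedom. Of all 25293 and 25337 features tested in level 0 were called as well, so the fits cannot tell members apart from other features. Between the mutants the block left 68 of 294 members called in level (40 higher, 28 lower), beside 2354 higher and 2291 lower of 25550 features. It left 12 in share (10 higher, 2 lower) and 2 in ratio. Fitted only on features that share no base on their strand, 24, 33 and 42 of 101 members were called in level in the 3 comparisons (23.8%, 32.7% and 41.6%, beside 18.9%, 22.7% and 32.7% of all such features). With reference features that share no base, shares changed in 7 of 99 members between DIDO3ΔE16 and WT and 21 of 100 between the mutants. Beside these, 321 were higher and 341 lower of 8979 features, and 891 higher and 893 lower of 9126. With a coverage of at least 1 in both lines, ratios changed in 4 of 56 and 5 of 53 members in these comparisons (7.14% and 9.43%), and in 8 of 57 between DIDO3ΔCT+HADIDO3 and WT. With 1 library left out, calls in level were 32 to 38, 51 to 57 and 76 to 81, in share 4 to 12, 11 to 15 and 26 to 32, and in ratio 1 to 3, 3 to 6 and 1 to 9. Other alternatives kept each count within 1.5 times. For the 37 values of members named by rule, all 620 values under alternatives kept their direction; without the block 527 of 583 were past the thresholds, 25 of the 37 under every one, and with the block 0 of 37. TPM without read counts and features that share bases limit low and overlapping members most.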

Other observations

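The multi-listed member of Tcf12, a basic helix-loop-helix transcription factor gene, was singled out after its values were seen. It had 0.732, 1.03 and 0.845 TPM in WT, 3.17, 41.7 and 2.69 in DIDO3ΔE16 and 47.4, 48.4 and 49.7 in DIDO3ΔCT+HADIDO3. Within DIDO3ΔE16, replicate 2 was just below the reconstituted line and the other replicates were far below it and above WT. The coverage of the last line followed the TPM, with 0.518, 0.726 and 0.681 in WT, 1.999, 35.00 and 2.47 in DIDO3ΔE16 and 46.6, 45.3 and 56.4 in DIDO3ΔCT+HADIDO3, while that of the first line was 0.432, 0.302 and 0.0975, 0.0378, 0.113 and 0.0756 and 0.265, 0.366 and 0.185. Junb, an overlapping member, varied on its first line within every group, with a coverage of 0.183, 0.124 and 12.3 in WT, 0.137, 10.1 and 0.0879 in DIDO3ΔE16 and 1.83, 1.68 and 13.7 in DIDO3ΔCT+HADIDO3 at a last line of 177, 164 and 151, 105, 118 and 157 and 128, 126 and 131. How reads were divided between features that share bases was not tested.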
